A study of Danio rerio with 3 samples.

Results

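Translation factors and aminoacyl-tRNA synthetases, the proteins that work with the ribosome to read messenger RNA, were described in cartilage of zebrafish larvae. The rule for members used names and no measured values, and took rows of the count table whose gene symbol begins as an elongation factor (eef), an initiation factor (eif) or a release factor (etf1, gspt1), or follows the pattern of a synthetase (aars to yars). The kinases named eif2ak were left out of the set. In all, 108 of 14417 rows were members, of which 77 were translation factors and 31 were synthetases. Of the 108, 100 were matched to a name in RefSeq (assembly GRCz12tu), 85 by symbol and 15 by an older name, and 8 were not matched.

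The libraries came from cartilage of the occipital part of the cranial base, cut by laser from tissue sections of wild-type larvae at 6 dpf. Capture was aimed at cartilage without its perichondrium, and library 1 was high in genes listed for bone and perichondrium, as given below. The study lists AB as its wild-type line, and no larva carried a mutation, a transgene or a drug treatment. The 3 independent samples are called libraries 1, 3 and 6 after the numbers in their titles, and all belong to 1 condition, so no contrast between conditions was tested. The number of larvae behind each library is not given in the sources used here, and the RNA was amplified for 1 round.

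In initiation, eIF2 brings the initiator tRNA to the small ribosomal subunit, eIF3 and the small factors eIF1 and eIF1A hold that complex open for scanning, and eIF4F (the cap-binding eIF4E, the scaffold eIF4G and the helicase eIF4A) loads the messenger. In elongation, eEF1A delivers each aminoacyl-tRNA, eEF1B recharges eEF1A with GTP, and eEF2 moves the ribosome along. Release factors eRF1 and eRF3 end the chain, and synthetases join each amino acid to its tRNA, with separate nuclear genes for most of the cytosolic and mitochondrial enzymes. Chondrocytes are secretory cells that make large amounts of collagen and proteoglycan.

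The counts of a library summed to between 18920027 and 25604897. A single row, AC024175.4, took 59.0% of them, 53.7% and 34.7% in libraries 1, 3 and 6, and the other rows held 9855389 to 12355434 counts. Values below are normalized counts, which are reads divided by the library size and the TMM factor of edgeR and put on a common scale. A read was worth 0.965, 1.1 and 0.947 normalized counts in libraries 1, 3 and 6, and a count of 0 allows up to 3 reads, which covers counting error only. Counts were not corrected for gene length, so libraries were compared within a gene, and ratios between genes or gene groups are ratios of reads, not of expression per length. Cartilage markers were abundant in every library, and the summed count of 12 of them was 438976, 518905 and 780087 in libraries 1, 3 and 6. RNA of other tissues was present as well. Although perichondrium was to be avoided, library 1 had 197968 normalized counts on 8 bone and perichondrium genes, against 5818 in library 3 and 10515 in library 6. Of the 8, 7 were highest in library 1, beside 35.4% of all rows. The type I collagen genes col1a1b, col1a1a and col1a2 had 91710, 56620 and 37406 there. The bone cell gene sp7 was at 0 in library 1, and ifitm5 had 29.0, 4.41 and 26.5 in libraries 1, 3 and 6. Which tissue these counts came from was not tested. On 5 epidermis genes, library 1 had 38623 counts, compared with 5181 and 5265 in libraries 3 and 6, where cldne was at 0. Sums over 12 skeletal muscle genes were 10626, 5364 and 18426, those over 9 nerve genes 5934, 12730 and 15406, and those over 4 blood genes 35286, 5001 and 36216 in libraries 1, 3 and 6. The part of these tissues in the values below was not tested, and fewer cells of a type cannot be told apart from less RNA per cell.

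Most of the translation machinery was read in every library. Of the 108 members, 100 (92.6%) had at least 10 normalized counts in each library, the level called above threshold here, beside 67.8% of all rows. This 67.8% also stands beside the count above threshold of each gene group below. All 108 had a mean of at least 10, 91 had a mean of at least 100 and 40 had a mean of at least 1000. With library 1 left out, 101 members were above threshold, and with library 3 or library 6 left out, 102 were. Together the members took 2.58% of the counts outside AC024175.4, 2.94% and 3.84% in libraries 1, 3 and 6 (mean 3.12% ± 0.647, SD, n = 3 libraries). The elongation factor gene eef1a1l1 alone gave 24.5%, 25.9% and 34.1% of the members' reads. Without it, the share of the remaining members was 1.95%, 2.18% and 2.53%, so the 3 libraries kept the same order with and without this gene.

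The members varied less between libraries than the table as a whole, and little less than rows of like count. The median log2 ratio of highest to lowest library came to 1.02 over the members and 1.74 over all rows with a mean of at least 10. In 54 of the 108 members the highest library was at least 2 times the lowest, beside 73.4% of 13166 such rows. Among genes of like count the difference was small. For means of 1000 or more, the median log2 ratio was 0.80 over 40 members and 0.79 over 1397 rows, for means of 100 to 1000 it was 1.27 over 51 members and 1.43 over 6142 rows, and for lower means 2.64 over 17 members and 2.91 over 5627 rows. Libraries 1, 3 and 6 held the highest value for 23, 39 and 46 members (16 to 31, 28 to 43 and 34 to 63 across the 6 scalings). Under TMM all rows were spread as 35.4%, 32.6% and 32.0%. Across the scalings they ran from 3636 to 5242, 3400 to 4531 and 3545 to 6155 rows. The 63 members and the 6155 of 13191 rows highest in library 6 both came from total-count scaling. The highest library was the same under all of these scalings for 77 members, and the lowest library for 82. Library 1 alone was lowest in 37.6% of all rows under TMM (4438 to 5806 rows across the scalings). Where ranges across the scalings are given below, the share of all rows beside them is that under TMM. Below, a gene of the set is called highest or lowest in a library only where every scaling gave the same library.

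The role groups differed in the library where they stood highest. Each member's log2 value was set against its own mean over the 3 libraries, which removes gene length. The median of these deviations over the 11 elongation factors was -0.44, -0.05 and 0.49 in libraries 1, 3 and 6. Over the 10 mitochondrial synthetases it was -0.53, 0.91 and -0.30, so the highest library was 6 for the first group and 3 for the second. The 19 cytosolic synthetases also stood highest in library 3 under TMM, with smaller medians of -0.263, 0.302 and -0.035. The 54 initiation factors, among them eif5a, eif5a2 and eif6, had smaller deviations than the elongation factors under TMM. The order was the same, at -0.09, -0.00 and 0.17. Across the scalings, library 1 ran from -0.29 to 0.01 and library 6 from 0.07 to 0.47. Under total-count scaling without the most abundant row the medians were 0.009, 0.001 and 0.068, so library 1 was not lowest there. Over the 77 rows named as ribosomal proteins, which are not members, the medians were -0.30, -0.02 and 0.32, again in that order. The medians over all rows were -0.01, 0.03 and 0.08.

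**Figure D1:**
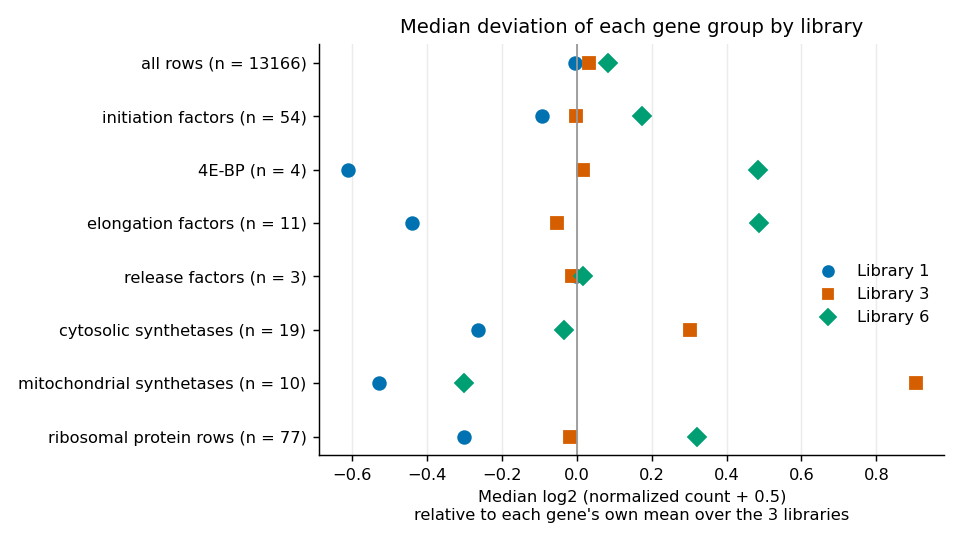
Median deviation of each gene group in libraries 1, 3 and 6 (horizontal axis, log2 of the normalized count plus 0.5, relative to each gene's own mean over the 3 libraries), with the number of genes in brackets. Elongation factors and ribosomal protein rows were lowest in library 1 and highest in library 6. In library 3, mitochondrial synthetases stood at 0.91 and cytosolic synthetases at 0.30.

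eIF2 carries the initiator tRNA and is made of an alpha, a beta and a gamma subunit. All 4 of its rows were above threshold, and none differed by 2-fold between libraries under TMM (0 to 3 across the scalings). Of all rows with a mean of at least 10, 73.4% differed by at least 2-fold. The beta subunit gene eif2s2 had 4662, 9308 and 4951 normalized counts in libraries 1, 3 and 6, and was highest in library 3. The gamma subunit gene eif2s3 had 5319, 8043 and 9903, and was highest in library 6. Within a library, the ratio of eif2s2 to eif2s3 was therefore 0.876, 1.16 and 0.50. The alpha subunit, whose phosphorylation slows initiation under stress, has a pair of genes in zebrafish. Values were 1807, 3004 and 1527 for eif2s1a and 687.2, 517.7 and 979.0 for eif2s1b, and the ratio of the first to the second was 2.63, 5.80 and 1.56. The pair moved in opposite directions, with eif2s1a highest in library 3 where eif2s1b was lowest.

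eIF2B is the exchange factor that recycles eIF2 and the sensor of its phosphorylation. Of its 6 rows, 5 were above threshold. The catalytic epsilon subunit had rows under the names eif2b5 and EIF2B5 (2 of 2). The first was read only 8, 23 and 14 times, or 7.72, 25.3 and 13.3 normalized counts, and fell below threshold in library 1. The second had 112.0, 374.5 and 123.1 normalized counts, so both rows were highest in library 3. The delta subunit gene eif2b4 was highest there as well, at 275.1, 503.4 and 263.2. In contrast, the alpha subunit gene eif2b1 was lowest in library 3, with 125.5, 12.1 and 57.8 normalized counts. The regulatory subunit gene eif2b2 had 208.5, 171.8 and 264.2, and eif2b3 was the most even of the group at 47.3, 50.7 and 51.1.

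Start codon selection and subunit joining were covered by 8 rows, all above threshold. The GTPase gene eif5b, which joins the large subunit, had 12529, 9691 and 5914 normalized counts in libraries 1, 3 and 6, and was highest in library 1 and lowest in library 6. The eIF1-type gene eif1b had 3356, 4038 and 4875, and a second row spelled EIF1B had 664.1, 1067 and 1259. Both spellings lead to 1 RefSeq gene, so their reads could belong to the same gene or to a close copy, and both were highest in library 6. The gene of the GTPase activator of eIF2, eif5, had 1457, 1947 and 1816. For eIF1A the copies parted, with 477.8, 123.4 and 295.4 in eif1axa against 580.1, 770.0 and 1202 in eif1axb. The ratio of the first to the second was 0.824, 0.16 and 0.246 in libraries 1, 3 and 6. The noncanonical initiator tRNA binders gave 791.5, 293.0 and 270.8 for eif2d, which was highest in library 1, and 141.9, 136.6 and 123.1 for eif2a.

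eIF3 is the largest initiation factor and bridges the small subunit to eIF4G. All 13 of its subunits, a to m, had a row, with 16 rows in total because e, h and j have copies, and 15 rows were above threshold. After the copies were summed, 10 of the 13 subunits differed by less than 2-fold between libraries under TMM, with a median log2 ratio of 0.72. Of all rows with a mean of at least 10, 73.4% differed by at least 2-fold. For rows with means of 1000 or more the median log2 ratio was 0.79, close to that of the subunits. Libraries 1, 3 and 6 held the highest value for 3, 3 and 7 subunits, beside 35.4%, 32.6% and 32.0% of all rows. Among the 7 was eIF3e, which was level between libraries 3 and 6 at 2885 in each. Across the scalings library 6 was highest in 6 to 12 of the 16 rows. The 12 came from total-count scaling, where library 6 was highest in 6155 of 13191 rows of the whole table. The scaffold subunit eIF3c (eif3c) had 3064, 4167 and 5055 normalized counts in libraries 1, 3 and 6. The scaffold subunit eIF3a, listed under its old name eif3s10, had 4837, 3667 and 3059, so it was highest where eIF3c was lowest. The small subunit gene eif3k had 3302, 2832 and 2556. The widest subunit was eIF3l, listed as eif3s6ip, which had 130.3, 197.2 and 475.3, or 3.65 times as much in the highest library as in the lowest. eIF3h was next, where eif3ha had 362.9, 145.4 and 318.1 and its copy eif3hb only 13, 11 and 6 reads, below threshold in library 6. Of the e copies, eif3ea was even at 2085, 2475 and 2820 and eif3eb was not, at 143.8, 409.8 and 65.3. The ratio of eif3ea to eif3eb was 14.5, 6.04 and 43.2. Of the j copies, eif3ja varied little, at 569.5, 634.5 and 554.9, whereas eif3jb had 735.5, 1867 and 1366. The eif3jb locus overlaps cilp, a gene known for its cartilage protein, by the span from gene start to gene end in the RefSeq annotation. Whether their exons overlap was not examined. The library kit does not mark strand, so reads of a shared exon could not be told apart.

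**Figure D2:**
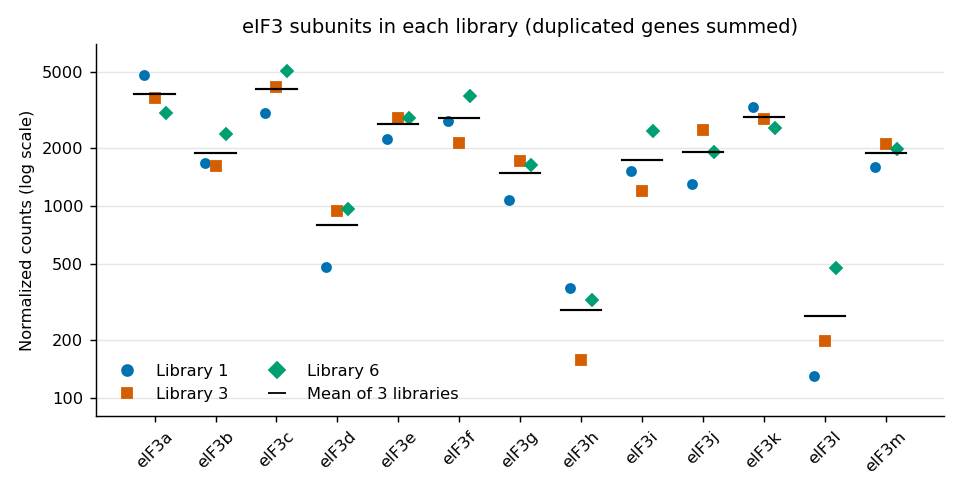
Normalized counts (vertical axis, log scale, not corrected for gene length) of the eIF3 subunits in libraries 1, 3 and 6, with copies of a subunit summed and the mean of the 3 libraries as a black bar. Under TMM, the 3 libraries lay within 2-fold of each other in 10 of 13 subunits, and eIF3l had the widest gap at 3.65 times. Of all rows with a mean of at least 10, 73.4% differed by at least 2-fold.

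The cap-binding complex eIF4F was represented by genes for all of its parts. The helicase eIF4A unwinds the leader of the messenger. Its gene eif4a1b had 4898, 6179 and 9607 normalized counts in libraries 1, 3 and 6, and the copy eif4a1a had 4769, 4252 and 7730, so library 6 was highest for both. The ratio of eif4a1b to eif4a1a was 1.03, 1.45 and 1.24. A further gene of the helicase, eif4a2, followed at 530.9, 638.9 and 851.2, and its RefSeq span also holds snoRNA genes. The helicase cofactors eif4ba and eif4bb had another order, at 707.5, 517.7 and 436.5 for the former and 1747, 1699 and 1130 for the latter, and the ratio of eif4bb to eif4ba was 2.47, 3.28 and 2.59. The further cofactor gene eif4h had 967.2, 1054 and 1235. Under TMM, none of these 6 rows differed by 2-fold between libraries (0 to 3 across the scalings), whereas 73.4% of all rows with a mean of at least 10 did.

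The scaffold eIF4G row EIF4G1 (1 of 3) had 5039, 4501 and 5628 normalized counts. Its relative eif4g2a encodes a scaffold without the binding site for eIF4E. This gene was among the most even members, at 1033, 1016 and 1005 (1018 ± 14.2, SD, n = 3 libraries). The copy eif4g2b had 292.5, 193.9 and 321.9. The eIF4G3 scaffold was uneven in EIF4G3 (2 of 2), at 200.8, 95.8 and 20.8, and low in eif4g3b, at 21.2, 39.7 and 40.7. In the first of these, library 1 had 9.64 times the counts of library 6.

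For the cap-binding protein eIF4E, 6 rows were counted and all were above threshold. The eif4e2 gene, whose mammalian product binds caps without supporting ordinary initiation, had 2777, 700.6 and 1416 normalized counts and was highest in library 1. The canonical type was split over eif4ea with 301.2, 158.6 and 78.6, eif4eb with 101.3, 89.2 and 122.1, and eif4e1c with 454.6, 873.5 and 869.2. These 3 genes differed in their lowest library, which was 6 for eif4ea, 3 for eif4eb and 1 for eif4e1c. The other rows were eif4e3, with 310.8, 409.8 and 174.2, and eif4e2rs1, with 263.5, 220.3 and 325.7.

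The 4E-BP proteins hold eIF4E away from eIF4G until mTORC1 phosphorylates them. All 4 of their genes were above threshold, and 3 were lowest in library 1, beside 37.6% of all rows. The gene eif4ebp3l had 2275, 5924 and 6870 normalized counts in libraries 1, 3 and 6, and eif4ebp3 had 1354, 3204 and 2721. In eif4ebp1, library 6 stood apart, with 184.4, 200.5 and 456.4. The gene eif4ebp2 had 1230, 895.5 and 1534, and was lowest in library 3. The ratio of eif4ebp3l to eif4ebp2 within a library was 1.85, 6.62 and 4.48. The transporter gene eif4enif1, whose product carries eIF4E into the nucleus in mammals, had 33.8, 307.3 and 65.3.

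Factors that act late or outside the core cycle were eIF5A, which carries the amino acid hypusine and helps the ribosome through difficult stretches such as runs of proline, and eIF6, which keeps the subunits apart. The eif5a gene had 6232, 5938 and 11159 normalized counts, with library 6 the highest, whereas eif5a2 was even at 5062, 5064 and 5670. The ratio of eif5a to eif5a2 was 1.23, 1.17 and 1.97. The eif6 gene had 973.0, 668.6 and 890.0. Among the rows that carry a factor name but have another role, the exon junction helicase gene eif4a3 had 296.3, 237.9 and 537.8, and eif1ad had 1166, 904.3 and 1193.

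**Figure D3:**
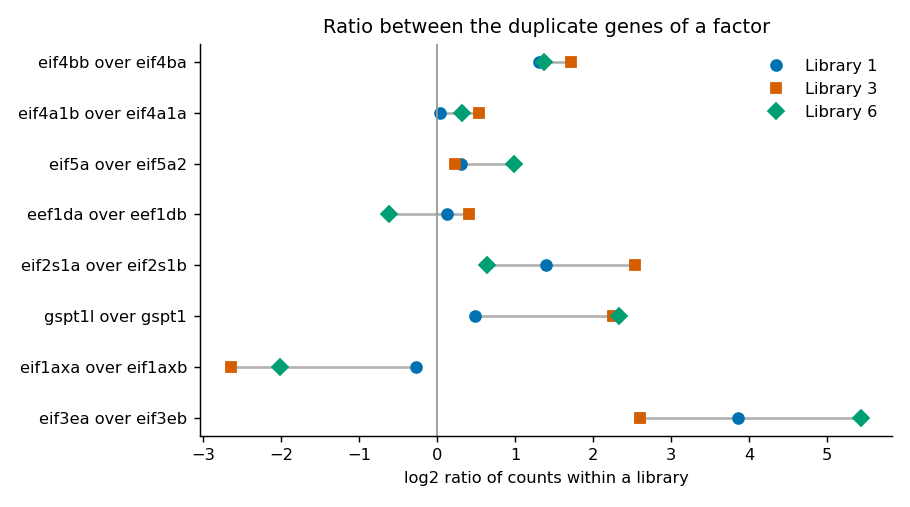
The log2 ratio of counts between the copies of a factor gene in each of the 3 libraries (horizontal axis, not corrected for gene length), where the grey line joins the lowest and the highest library. The ratio of eif4bb to eif4ba stayed between 2.47 and 3.28, whereas that of eif3ea to eif3eb ran from 6.04 to 43.2.

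Elongation factors took most of the members' reads. The genes eef1a1l1, eef2b and eef1g held 45.9% of them, 48.6% and 59.5% in libraries 1, 3 and 6. The eef1a1l1 gene had 64239, 82590 and 153248 normalized counts (100026 ± 46996, SD, n = 3 libraries), with 2.39 times as much in the highest library as in the lowest. It made up 99.50%, 99.58% and 99.71% of the reads on the 4 eef1a rows. The 95% Wilson interval was 99.44 to 99.55% in library 1 and 99.68 to 99.73% in library 6. It covers counting error only, not the spread between samples. The near-identical eef1a copies can share reads, and the split between them is uncertain. The copy eef1a1a had 304.0, 186.2 and 305.8, and eef1a1b had 20.3, 161.9 and 94.7, lowest in library 1. The gene eef1a2, whose mammalian counterpart is the form of muscle and neurons, was read 0 times in libraries 1 and 3 and 48 times in library 6. Library 6 was thus at least 15.7-fold higher than library 1 and at least 13.8-fold higher than library 3, taking 3 reads per library as the limit of a count of 0. These folds rest on the 48 reads of library 6, and the span of the gene overlaps that of the protein-coding gene mrgbp in the RefSeq annotation. Whether their exons overlap was not examined, and without strand, reads of a shared exon could not be told apart. Library 6 also had the highest count of 10 of the 12 muscle marker genes and 7 of the 9 nerve marker genes, beside 32.0% of all rows. The part of these tissues in the eef1a2 value was not tested.

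eEF1B recharges eEF1A with GTP. Under TMM its 4 rows were all lowest in library 1 (3 or 4 of them across the scalings), beside 37.6% of all rows. The exception was eef1da, whose lowest library was 1 or 6 depending on the scaling. The gamma subunit gene eef1g had 22064, 38405 and 35623 normalized counts. The beta subunit gene eef1b2 had 10059, 11902 and 19030. The delta subunit, the second exchange subunit, has a pair of copies, with 8067, 12747 and 9184 in eef1da and 7399, 9661 and 14126 in eef1db. The pair changed order, since the ratio of eef1da to eef1db was 1.09, 1.32 and 0.65 in libraries 1, 3 and 6.

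eEF2 moves the ribosome by one codon and is switched off when its kinase phosphorylates it. The eef2b gene had 33939, 33980 and 78109 normalized counts, so library 6 stood apart from libraries 1 and 3, and its mean ± SD was 48676 ± 25490 (n = 3). Its ratio to eef1a1l1 changed little, and eef1a1l1 had 1.89, 2.43 and 1.96 times the counts of eef2b. The relatives eef2l2, with 1262, 1570 and 742.3, and eef2a.1, with 61.8, 475.9 and 285.0, did not follow eef2b, and both were highest in library 3. The kinase gene eef2k had 203.7, 588.2 and 538.8, lowest in library 1. Of the 11 elongation factors, 8 were lowest in library 1 alone (6 to 8 across the scalings), beside 37.6% of all rows, and eef1a2 was at 0 in libraries 1 and 3. Library 6 was highest for 6 of the 11 (5 to 7 across the scalings), beside 32.0% of all rows.

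**Figure D4:**
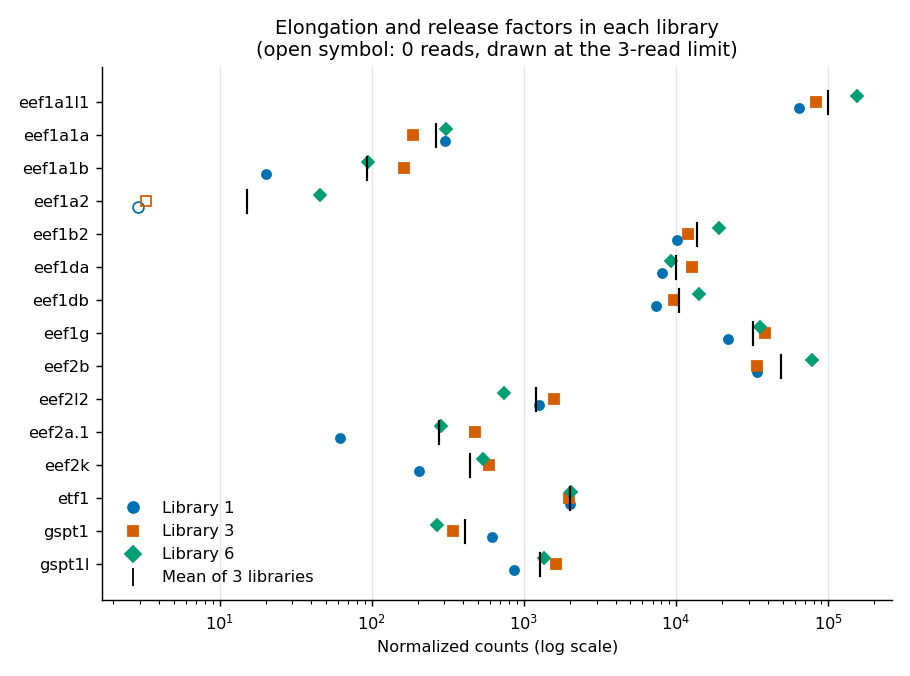
Normalized counts (horizontal axis, log scale) of elongation and release factors in libraries 1, 3 and 6, with the mean as a black bar and open symbols for 0 reads, drawn at the limit of 3 reads. Under TMM, library 1 was the lowest in all 4 eEF1B genes (3 or 4 across the scalings). The gene eef1a2 was read only in library 6, and the 3 libraries of etf1 overlay each other.

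Release factors included the most even gene of the set. The eRF1 gene etf1, whose product reads stop codons, had 1998, 1984 and 2025 normalized counts (2002 ± 21.1, SD, n = 3 libraries), the smallest ratio among the 91 members with a mean of at least 100. This evenness is that under TMM, since another scaling shifts all genes of a library together. The next in evenness were eif4g2a, eif5a2, eif3ja and the serine synthetase gene sars, with 564.7, 508.9 and 582.3. The copies of eRF3, the GTPase partner of eRF1, were less even, at 615.8, 340.4 and 269.9 for gspt1 and 862.9, 1623 and 1361 for gspt1l. The ratio of gspt1l to gspt1 was 1.4, 4.77 and 5.04.

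Synthetases varied more than the factors and about as much as all rows. The median log2 ratio between the highest and lowest libraries was 1.76 over the 31 synthetases and 0.92 over the 77 translation factors. Over all rows with a mean of at least 10 it was 1.74. It fell with count there, from 2.91 for means of 10 to 100 and 1.43 for means of 100 to 1000 to 0.79 for means of 1000 or more. Synthetases were not compared with factors or with all rows at like count. Only aars and kars among the synthetases had a mean of at least 1000. A ratio of at least 2 was reached by 23 synthetases (74.2%) and 31 factors (40.3%), beside 73.4% of rows. Above threshold were 27 of the 31 (87.1%), beside 67.8% of all rows. Of the 19 cytosolic synthetases, 5, 11 and 3 were highest in libraries 1, 3 and 6, beside 35.4%, 32.6% and 32.0% of all rows. Across the scalings these counts ran from 5 to 6, 8 to 11 and 2 to 6. The alanine enzyme gene aars had 2901, 923.1 and 1621 normalized counts, and library 3 was lowest. The histidine enzyme gene hars had 420.8, 1018 and 787.8, lowest in library 1. The asparagine enzyme gene nars resembled aars in its order, with 677.6, 186.2 and 303.0, as did the threonine enzyme gene tars, with 532.8, 200.5 and 284.1, and the methionine enzyme gene mars, with 322.4, 34.2 and 170.4. In contrast, iars for isoleucine had 89.8, 643.3 and 275.5, vars for valine 168.0, 568.4 and 210.2, and larsb for leucine 167.0, 449.4 and 254.7. These cytosolic enzymes of branched-chain amino acids were thus highest in library 3 and lowest in library 1, a grouping made after the values were seen.

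The phenylalanine enzyme is built from alpha and beta chains in equal numbers. Its alpha gene farsa had 706.5, 296.3 and 120.3 normalized counts and its beta gene farsb 163.1, 143.2 and 265.1. The ratio of farsa to farsb was 4.33, 2.07 and 0.454, so the pair was in opposite order in libraries 1 and 6. The farsb locus overlaps scaf4b and tiam1b in the RefSeq annotation. The glycine and lysine enzyme genes gars and kars serve both compartments and were even, at 441.1, 342.6 and 450.7 for gars and 924.7, 1149 and 1191 for kars.

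Several cytosolic enzymes bind each other and the scaffolds AIMP1 and AIMP2 in the multisynthetase complex. Of its 9 member rows in the set, 6 were highest in library 3 (5 to 7 across the scalings), beside 32.6% of all rows, and 2 of the 9 were below threshold. The gene eef1e1, which encodes a small scaffold protein of this complex in mammals, was read 10 times in library 1, 0 times in library 3 and 36 times in library 6, so library 6 was at least 10.3-fold above library 3. The leucine row larsa was read 0, 35 and 9 times, at least 13.3-fold higher in library 3 than in library 1. The tryptophan row WARS, which is not among the 9, was read 8, 40 and 7 times, or 7.72, 44.1 and 6.63 normalized counts. The scaffold gene aimp1, outside the set, had 165.1, 599.2 and 229.1, and aimp2 had 1245, 1576 and 1725.

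Most mitochondrial synthetases were highest in library 3, as were 11 of the 19 cytosolic ones under TMM (8 to 11 across the scalings). Of the 10 rows, 6 were highest in library 3 under every scaling, beside 32.6% of all rows. Of these 6, the methionine row MARS2 was nearly even, at 33.8, 41.9 and 30.3 normalized counts, and overlaps med12 in the RefSeq annotation. The isoleucine enzyme gene iars2 had 50.2, 547.4 and 109.8 normalized counts, the alanine enzyme gene aars2 192.1, 606.9 and 109.8, and the cysteine enzyme gene cars2 82.0, 432.9 and 77.6. Library 3 was at least 3 times each of the other libraries in these genes. The threonine row TARS2, with 36.7, 361.3 and 179.9, overlaps 5 genes in the RefSeq annotation, and vars2 for valine had 370.6, 587.1 and 258.5. RefSeq has a gene with the symbol vars2 and also gives vars2 as an older name of vars1, the gene matched by vars, so the compartment of this row is uncertain. Other rows had a different order. The serine enzyme gene sars2 was read 29, 1 and 127 times, the arginine enzyme gene rars2 116, 76 and 5 times, and the phenylalanine row FARS2 (2 of 2) had 21.2, 90.3 and 224.4 normalized counts. Library 3 also had the lowest marker sums for muscle (5364), blood (5001) and bone with perichondrium (5818). Its epidermis sum of 5181 was close to the 5265 of library 6, and most of both was the row zgc:92533 (5039 and 4354). The nerve sum of library 3, 12730, lay between those of libraries 1 and 6. The part of this tissue makeup in the synthetase values was not tested.

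**Figure D5:**
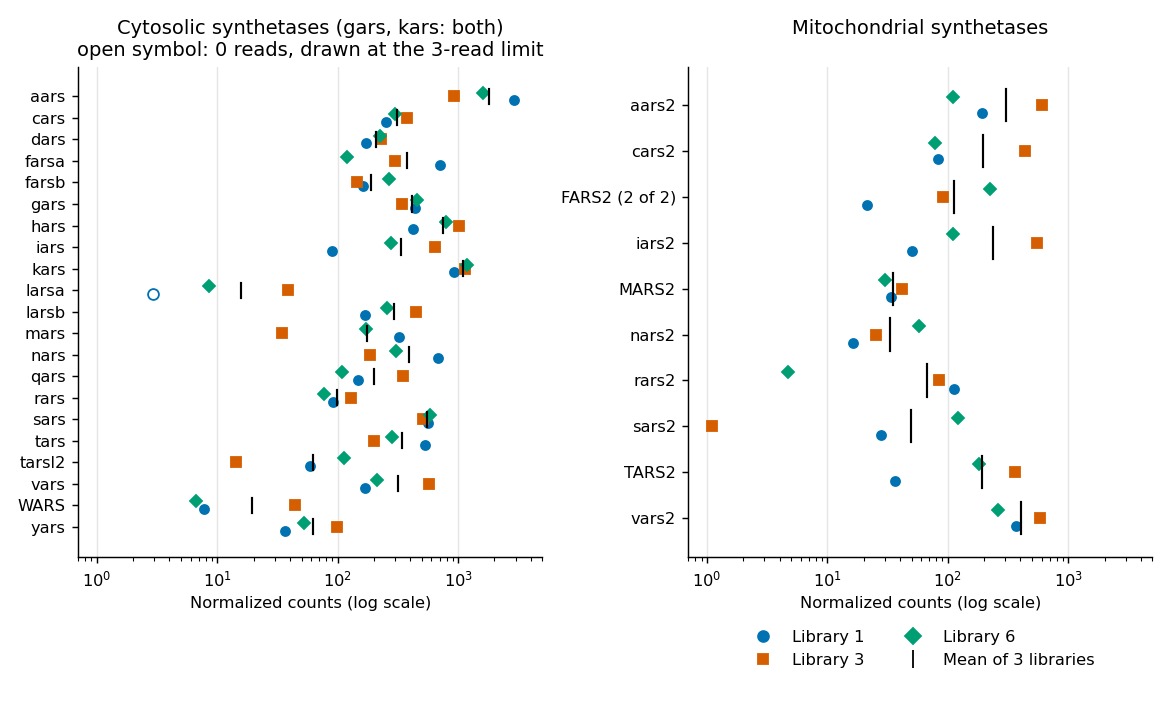
Normalized counts (horizontal axis, log scale) of the cytosolic synthetases, with gars and kars that serve both compartments, and of the mitochondrial synthetases in libraries 1, 3 and 6, with the mean as a black bar and an open symbol for 0 reads, drawn at the limit of 3 reads. In iars2, aars2 and cars2, library 3 lay above libraries 1 and 6, and larsa had 0 reads in library 1.

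The median cytosolic synthetase had 3.87 times the counts of the median mitochondrial one in library 1, 1.01 times in library 3 and 2.06 times in library 6, not corrected for length. On the log2 scale these ratios were 1.95, 0.01 and 1.04 (mean 1.0 ± 0.97, SD, n = 3 libraries), so their spread was as wide as their mean. As a ratio of summed counts, cytosolic over mitochondrial enzymes, the values were 7.93, 2.25 and 4.91. The order of the libraries was the same by medians and by sums.

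Other genes of translation, listed outside the naming rule, were counted beside the members. Of 57 listed, 47 had a row and 43 of these (91.5%) were above threshold, beside 67.8% of all rows. The poly(A)-binding protein genes pabpc1a and pabpc1b, which close the messenger into a loop through eIF4G, were lowest in library 1, at 21551, 34888 and 30006 and at 6795, 14296 and 15511 normalized counts. In contrast, pabpc4 was nearly identical in the 3 libraries, at 552.1, 549.7 and 546.3. The genes dhps and dohh, whose enzymes make the hypusine of eIF5A, were highest in library 3, at 86.9, 206.0 and 132.6 and at 244.2, 875.7 and 589.9. All 3 eIF2 kinase genes with a row were above threshold, beside 67.8% of all rows. The gene of the endoplasmic reticulum sensor PERK, eif2ak3, had 196.9, 61.7 and 274.6 normalized counts. The other kinase genes were near the minimum in library 3, with 12.55, 11.02 and 28.41 for eif2ak1 and 31.85, 11.02 and 14.2 for eif2ak2. Of 9 genes of the stress response downstream of eIF2 phosphorylation, all were above threshold, beside the same 67.8%. Libraries 1, 3 and 6 were highest for 5, 2 and 2 of them, beside 35.4%, 32.6% and 32.0% of all rows. The glutathione-degrading enzyme gene chac1, a target of Atf4 in mammals, had 5523, 10541 and 16568, whereas asns, the asparagine synthetase gene and another Atf4 target, was even at 876.4, 750.1 and 783.0. Among those highest in library 1, in contrast to chac1, were the transcription factor genes ddit3 (592.7, 436.2 and 224.4) and atf3 (131.3, 51.8 and 50.2). The mTORC1 inhibitor gene ddit4, at 476.8, 358.0 and 158.1, was another. The genes of Atf4 itself differed, with 778.0, 546.3 and 1078 for atf4b1 and 1741, 910.9 and 1210 for atf4b2. Highest in library 3 were trib3 (917.0, 2906 and 901.4) and sesn2 (41.5, 264.4 and 169.5). The mTORC1 kinase gene mtor had 502.9, 530.9 and 635.3, and larp1, a repressor of messengers for the translation machinery, had 1604, 1680 and 1659.

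Mitochondrial translation factors were listed as well. Of 9 with a row, 6 were above threshold, a share close to the 67.8% of all rows, and 6 were highest in library 3, beside 32.6% of all rows. Among the latter 6 were mtrf1, whose mean of 3.465 lies below the mean of 10 required for the 32.6%, and tsfm, with only 12.55, 24.23 and 18.94 normalized counts. The elongation factor gene gfm1 had 5.79, 135.5 and 27.5 normalized counts, with library 3 the highest, as in the mitochondrial synthetases iars2 and cars2. The initiation factor gene mtif2 was read 0 times in library 1 and had 122.3 and 126.9 normalized counts in libraries 3 and 6, at least 43.8-fold higher in library 6 than in library 1. The release factor gene mtrf1 had 0, 6.61 and 3.79. The elongation factor gene tufm had 114.9, 180.6 and 262.3, highest in library 6. The gene mrrf was also highest in library 6 and was lowest in library 3, at 74.32, 16.52 and 164.8.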

How the data were processed

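The authors captured cartilage by laser, amplified the RNA for 1 round, made libraries with a kit that does not mark strand, and deposited raw counts of reads per gene symbol, without normalization. Per the labels, the processing named Trimmomatic 0.36, edgeR and the genome build Zv9. The aligner, the counting tool and the annotation are not given in the sources used here. All 3 columns of counts were used.

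Counts were normalized with TMM in edgeR 4.0.16 (R 4.3.3) then multiplied by the average effective size of the libraries. Tables were made in Python 3.11.15 with pandas 2.3.3 and numpy 2.4.6. The minimum was 10 normalized counts in every library, log2 values used a pseudocount of 0.5, and a count of 0 was set to the limit of 3 reads per library in folds. The step was tested on simulated data. With 1 condition, no significance test was made. A library was counted as lowest in a gene only where no other library tied with it. No pair of libraries was a copy of another (chi-square per degree of freedom 166 to 416). Gene names and neighbours came from RefSeq GRCz12tu, another build than that of the counts, so no coordinates are given. Of the members, 33 overlap another RefSeq gene, 18 of them a protein-coding one, by the span from gene start to gene end and without regard to exons.

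The naming rule of the set and the gene lists were chosen with earlier results of these data known, although the rule itself uses no values. The genes named were those with the highest mean count in each role group (a choice by reads, not by expression per length), every member below the minimum in a library, those with the largest ratio between libraries, copies of a duplicated factor, and inhibitors and kinases. Other members were named after their values were seen, as were those with the smallest ratio. Correction for coding length and a search of promoters for a motif had been planned, and neither was run because no sequences were at hand, so the uncorrected values stand. Alternatives were scaling to total counts (with and without the most abundant row), to the upper quartile, by TMM on filtered genes or by the size factors of DESeq2 1.42.0, other minimums and pseudocounts, and leaving out each library. Leaving out eef1a1l1, qars, or vars with vars2 was added after seeing the data.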

Additional observations from a re-analysis of the deposited data

How the results depend on the processing

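No paired analysis was possible because all libraries belong to 1 condition. The number of members above threshold was 100 under every scaling, 87 with a minimum of 50, 105 with a minimum of 1 and 101 to 102 with 1 library left out. As a share of all counts, AC024175.4 included, the members took 1.64%, and without eef1a1l1, a choice made after seeing the data, they took 2.22% of the other counts, against 3.12%. With 1 library left out, the share ran from 2.76% to 3.39%. The median log2 ratio between libraries, 1.02, was 1.36 under total-count scaling and 0.60 to 0.72 with 1 library left out, where 2 libraries are compared in place of 3. The log2 ratio of cytosolic to mitochondrial synthetases, 1.0, was 2.15 as a ratio of sums, 1.01 without qars and 1.53 without vars and vars2 (both chosen after seeing the data). It was 0.53 without library 1, 1.5 without library 3 and 0.98 without library 6. The log2 ratio of the highest to the lowest eIF3 subunit, 3.94 and not corrected for length, was 3.75 to 4.70 with 1 library left out. The share of eef1a1l1 among eef1a reads was 99.54% to 99.64%. Under total-count scaling the median over all rows moved by 0.51 (log2) between libraries 1 and 6, against 0.05 under TMM, and the median deviation of the cytosolic synthetases was then 0.25 in library 6 and 0.20 in library 3. The mean of 30 members moved by over 1.5 times when 1 library was left out, and for 37 members the SD was above 50% of the mean. Depth limits eef1a2, eef1e1 and larsa, where a count of 0 still allows up to 3 reads.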
